A study of Saccharomyces cerevisiae with 6 samples.

Results

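The yapsins are a family of aspartic proteases at the surface of budding yeast (Saccharomyces cerevisiae), and the genes described here are YPS1, MKC7 (also called yapsin 2), YPS3, YPS6 and YPS7. They were taken by name as the listed members of the family. Each of the 5 was matched to 1 probe set, a group of array probes for 1 transcript, out of 5498 probe sets annotated to a single S. cerevisiae gene and covering 5449 genes. Transcript levels were measured on 6 Affymetrix arrays in cells labelled wild type and in mid-log phase. In 1 group, 3 cultures had been kept for 3 h with OGT2468 at 0.1 µM, and in the other, 3 cultures had been kept for 3 h with the solvent DMSO at 0.1% and without OGT2468. The labels name the compound by this code only. Strain background, mating type, growth medium and the DMSO content of the OGT2468 cultures are not given in the sources used here. An array reports the average over a culture, so less transcript per cell and fewer cells that make it cannot be told apart.

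Yapsins are made as inactive precursors, pass through the secretory pathway and are held at the plasma membrane or in the cell wall by a glycosylphosphatidylinositol (GPI) anchor. They cut other proteins after basic residues. The Golgi protease Kex2 processes the precursor of the alpha mating pheromone. YPS1 and MKC7 were found as genes that, when overproduced, make up in part for loss of Kex2. The remaining members were recognised by sequence. Cells without yapsins are sensitive to cell wall damage, and transcription of YPS1 is known to depend on the cell wall integrity pathway. There the kinases Pkc1 and Slt2 and the transcription factor Rlm1 act in sequence.

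In OGT2468 cultures 3 of the 5 yapsin genes were higher and 2 did not pass the test. YPS3 rose 5.77-fold, YPS1 rose 2.00-fold and YPS6 rose 2.01-fold, as ratios of mean normalised intensities. YPS7 and MKC7 differed by factors of 1.14 and 1.05 and did not pass. Calls here are those of limma, a linear model fitted to all 8968 tested probe sets, at a Benjamini-Hochberg adjusted p under 0.05. By this rule 2.59% of all tested probe sets were called, 1.83% as higher and 0.758% as lower. The tested probe sets include 3470 without a gene name, whose species was not determined. Every share over all tested probe sets counts these as well. In a fit to the 5498 named probe sets alone 526 were called, 314 as higher and 212 as lower. No yapsin gene fell in limma, also at an unadjusted p under 0.05, at which 4 were higher. At that unadjusted threshold 8.56% of all tested probe sets were higher and 7.84% lower. In 4 of the 5 the groups did not overlap, with OGT2468 higher, as in 12.0% of all tested probe sets (24.1% in either direction). The median log2 change over the 5 yapsin genes was 0.84, beside -0.01 over all tested probe sets. All 5 probe sets were above the background level, the 98th percentile of probe sets for another species, on each of the 6 arrays.

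**Figure D1:**
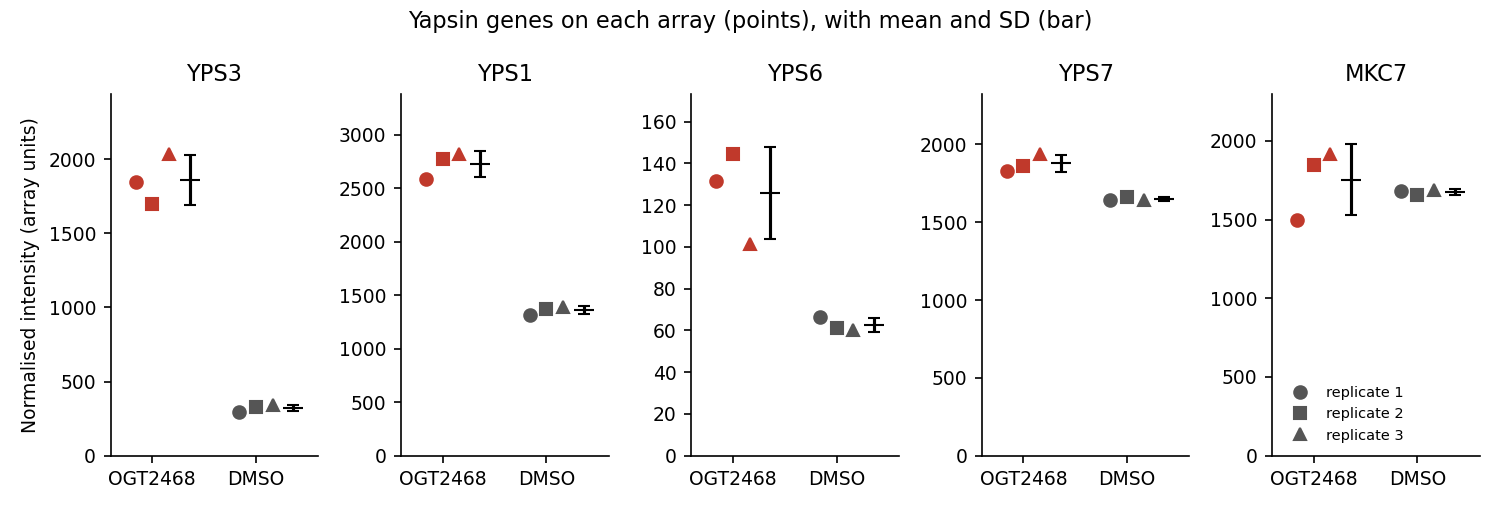
Quantile-normalised intensity of each yapsin gene (vertical axes in array units, starting at 0 and scaled apart for each gene) on the OGT2468 arrays (red) and the DMSO arrays (grey); the shape of a point gives the replicate number and the bar gives mean and SD (n = 3). The groups lie apart for YPS3, YPS1, YPS6 and, by a narrow gap, YPS7, and overlap for MKC7.

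YPS3 (YLR121C, probe set 1779866_at) encodes a yapsin with less known about its substrates than about those of YPS1. Its normalised intensity was 1848.5, 1695.3 and 2036.7 on the OGT2468 arrays 1, 2 and 3, against 297.6, 328.8 and 340.7 on the DMSO arrays 1, 2 and 3. The lowest OGT2468 array was far above the highest DMSO array. On the log2 scale YPS3 rose by 2.47 ± 0.09 (SE, 3 arrays per group; limma adjusted p = 0.000644). Among the 5498 named probe sets this was the rise of rank 3, counted from the largest. The call was kept in each of the 6 fits that left out 1 array, with changes between 2.41 and 2.55.

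YPS1 (YLR120C, probe set 1771792_at) encodes yapsin 1, the best studied member. Its normalised intensity was 2588.9, 2772.5 and 2819.9 on the OGT2468 arrays and 1317.8, 1373.0 and 1392.3 on the DMSO arrays. The groups did not overlap, and the replicates of each group lay close together, with SDs of 122 in OGT2468 and 38.7 in DMSO. On the log2 scale it rose by 0.99 ± 0.06 (SE, n = 3 per group; limma adjusted p = 0.00201), a rise of rank 27 among the named probe sets. Without any 1 array the change lay between 0.97 and 1.03 and the call was kept. With no scaling between arrays the change was 0.71 and did not pass (adjusted p = 0.137).

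YPS6 (YIR039C, probe set 1769659_at) encodes a member recognised by sequence and was measured at low intensities. Its deposited intensities were 128.9, 131.4 and 82.3 on the OGT2468 arrays and 69.7, 54.9 and 78.5 on the DMSO arrays, where the background level lay between 21.8 and 25.9. After normalisation the values were 131.6, 144.6 and 101.3 on the OGT2468 arrays, against 66.5, 61.2 and 60.1 on the DMSO arrays. OGT2468 replicate 3 was the low array of its group and still lay above all 3 DMSO arrays. The log2 change was 0.84 ± 0.13 (SE, n = 3 per group; limma adjusted p = 0.0307). Leaving out OGT2468 replicate 1 or 2 or any DMSO array ended it, at adjusted p between 0.0814 and 0.116, and without OGT2468 replicate 3 the change was 0.97 (adjusted p = 0.0205). It was also lost on unscaled arrays (0.62), under hybridization-control scaling (0.71) and at pseudocount 1 (0.98, adjusted p = 0.0603).

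YPS7 (YDR349C, probe set 1771218_at), also a member recognised by sequence, had normalised intensities of 1830.0, 1863.2 and 1939.4 on the OGT2468 arrays and of 1640.7, 1665.2 and 1641.9 on the DMSO arrays. All 3 OGT2468 arrays were above all 3 DMSO arrays, which was also so, in this direction, for 12.0% of all tested probe sets. The log2 change of 0.185 ± 0.06 (SE, n = 3 per group) did not pass over all probe sets (limma adjusted p = 0.179), and its 95% interval ran from 0.05 to 0.32. With no scaling the change was -0.10 and under hybridization-control scaling -0.002. These scalings moved the median of all named probe sets as well, to -0.27 and -0.18, and relative to that median YPS7 was 0.17 and 0.175 higher, against 0.20 with quantile normalisation.

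MKC7 (YDR144C, probe set 1769406_at) had normalised intensities of 1499.1, 1846.0 and 1917.7 on the OGT2468 arrays, against 1683.7, 1655.9 and 1685.9 on the DMSO arrays. OGT2468 replicate 1 lay below and the other OGT2468 arrays above all DMSO arrays. The OGT2468 arrays spread far more (SD 224) than the DMSO arrays (SD 16.7). The log2 change was 0.06 ± 0.10 (SE, n = 3 per group; limma adjusted p = 0.831), with a 95% interval from -0.20 to 0.31, which leaves out a change as large as that of YPS1, YPS3 or YPS6. Without OGT2468 replicate 3 the change was -0.01. On unscaled arrays it was -0.23 and under hybridization-control scaling -0.13, which relative to the median of all named probe sets came to 0.045 and 0.05, against 0.08 with quantile normalisation.

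**Figure D2:**
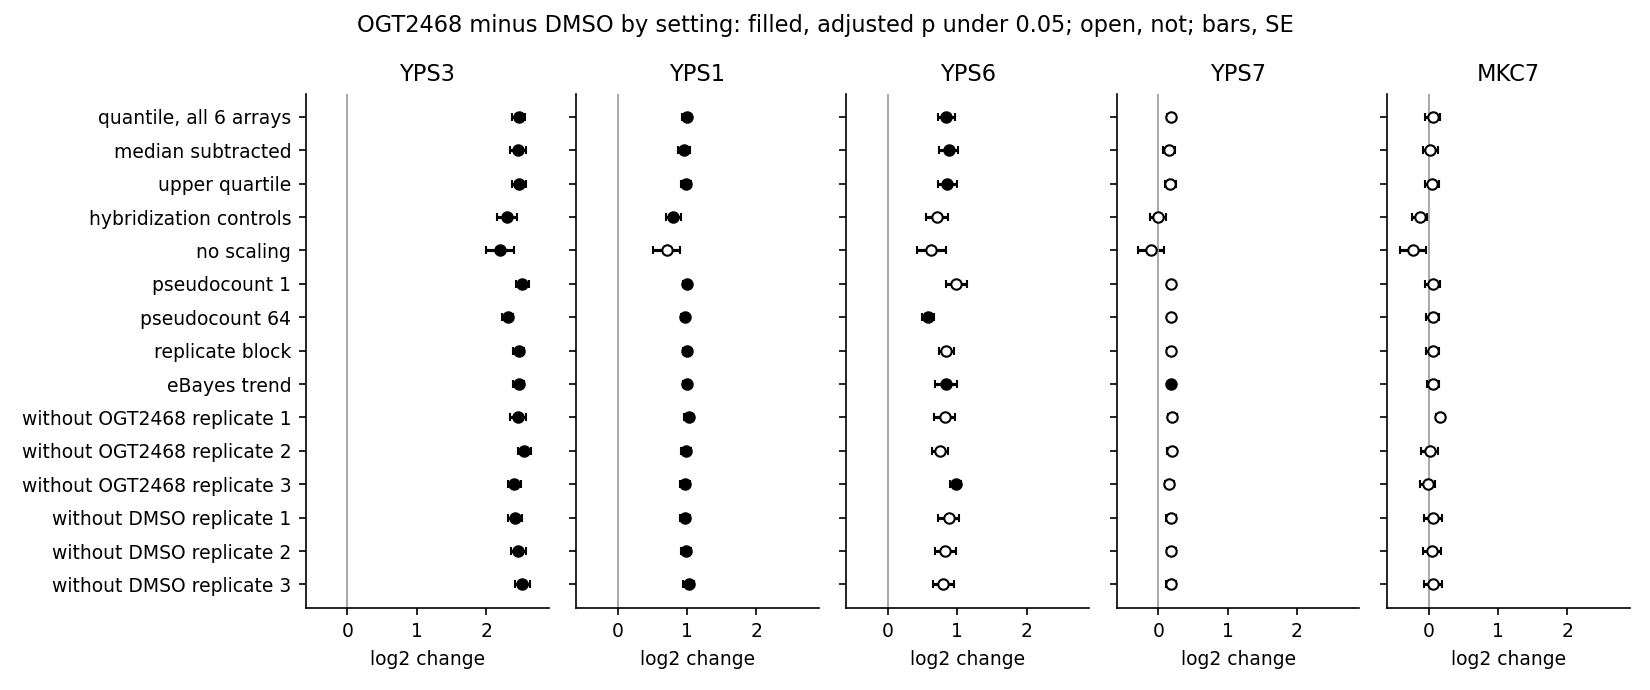
Log2 change (horizontal axes, OGT2468 minus DMSO) of each yapsin gene under the setting reported and under alternatives (rows), with bars for the SE and filled points for a limma adjusted p under 0.05. YPS3 passed in every row shown and YPS1 in every row but the one with no scaling, while YPS6 moved between filled and open. The points of YPS7 and MKC7 lay near 0 and were open, except that of YPS7 with a variance trend in eBayes (limma adjusted p = 0.0495). The fits without dim probe sets and among named probe sets alone are not shown.

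Whether the paralogs changed by different amounts was asked from ratios within an array, in which a factor common to the whole array cancels. These ratios show unequal change and not relative abundance, since different probe sets are not on a common scale. The deposited intensity of YPS3 over that of YPS7 was 1.01, 0.914 and 1.05 on the OGT2468 arrays 1, 2 and 3 and 0.181, 0.185 and 0.216 on the DMSO arrays. YPS1 over YPS7 was 1.44, 1.46 and 1.45 in OGT2468 and 0.811, 0.809 and 0.857 in DMSO. YPS6 over YPS7 was 0.0695, 0.0809 and 0.0523 in OGT2468 and 0.0409, 0.0342 and 0.0368 in DMSO. In these 3 ratios, and in those of the same genes over MKC7, each OGT2468 array was above each DMSO array before any scaling.

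**Figure D3:**
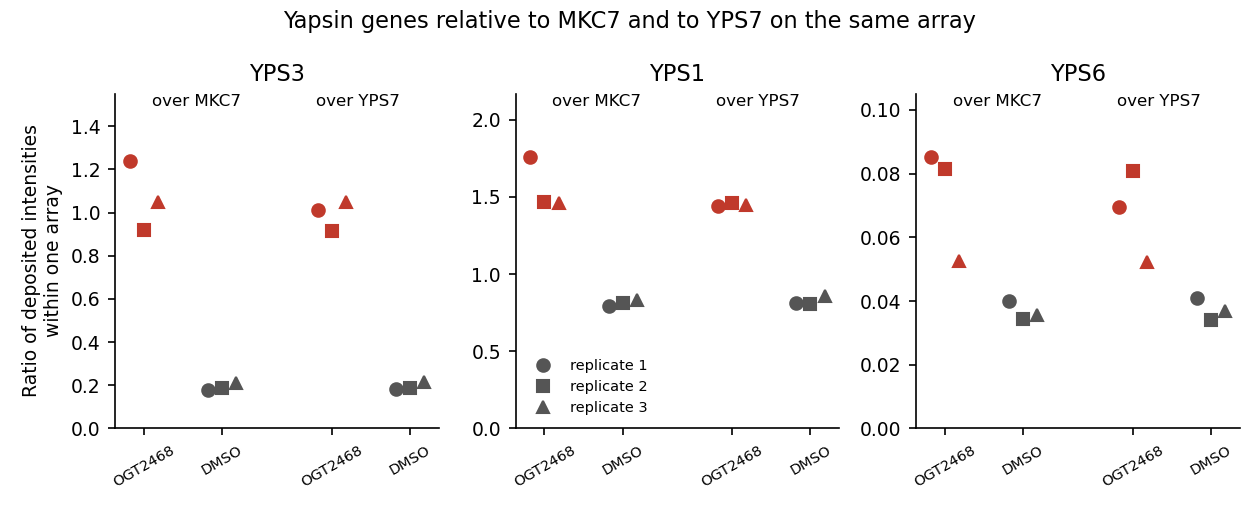
Deposited intensity of YPS3, YPS1 and YPS6 divided by that of MKC7 or YPS7 on the same array (vertical axes start at 0), with OGT2468 arrays in red, DMSO arrays in grey and the shape of a point giving the replicate number. In each panel and for both divisors the OGT2468 arrays lie above the DMSO arrays, with the narrowest gap for YPS6.

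On the normalised log2 scale the change of YPS3 exceeded that of YPS7 by 2.28 ± 0.08 and that of MKC7 by 2.41 ± 0.14 (SE, n = 3 per group). YPS1 exceeded YPS7 by 0.81 ± 0.03 and MKC7 by 0.94 ± 0.08. YPS6 exceeded YPS7 by 0.66 ± 0.16 and MKC7 by 0.78 ± 0.21. Among the 3 genes that rose, YPS3 exceeded YPS1 by 1.48 ± 0.08 and YPS6 by 1.63 ± 0.23. The changes of YPS1 and YPS6 were not told apart: the difference was 0.15 ± 0.17, and the 9 differences between an OGT2468 and a DMSO array ran from -0.09 to 0.58. YPS7 exceeded MKC7 by 0.13 ± 0.09. The gap between these groups was narrow, with a lowest OGT2468 log2 ratio of 0.013 and a highest DMSO ratio of 0.008. The groups of this pair no longer lay apart when arrays were not scaled. Of the 10 pairs, 9 had groups that did not overlap, each with an exact two-sided permutation p of 0.1, the smallest that 3 against 3 arrays can give, and an adjusted p of 0.111 over the 10 pairs, so no pair could pass. YPS1 against YPS6 had an exact permutation p of 0.6. The count of pairs was 8 with no scaling, 9 at pseudocount 1 and 10 at pseudocount 64. The 10 pairs reuse the same 5 genes, with the gene of larger change put first. How often pairs of other genes lie apart was not computed, so the count has no background share beside it.

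YPS1 and YPS3 are next to each other on chromosome XII in the R64 gene table, and both rose. The gene on the other side of YPS1 is SRN2, which acts in sorting proteins to the vacuole. SRN2 had a mean normalised intensity of 115.4 ± 15.1 in OGT2468 and 160.6 ± 30.3 in DMSO (SD, n = 3 each), a log2 change of -0.42 ± 0.15 (SE) that did not pass (limma adjusted p = 0.256). The gene beyond YPS3, YLR122C, was not analysed here. Next to MKC7 lie SAN1, which encodes a nuclear ubiquitin ligase, and TAF12, which encodes a subunit of transcription factor TFIID, with log2 changes of -0.11 and -0.05. Next to YPS6 lies GTT1, a glutathione transferase gene (-0.04), and next to YPS7 lies PAL1 (0.095). None of these 4 passed, with limma adjusted p between 0.545 and 0.869. PAU15 next to YPS6 and the tRNA gene EMT1 next to YPS7 were not analysed here.

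Of 4 other aspartic protease genes measured, 0 passed in limma, and 0 had an unadjusted p under 0.05. Over all tested probe sets 2.59% passed, and at the unadjusted threshold 8.56% were higher and 7.84% lower. The vacuolar protease gene PEP4 had a mean normalised intensity of 6057.7 ± 132 in OGT2468 and 5804.5 ± 106 in DMSO (SD, n = 3 each; log2 change 0.06). DDI1, which encodes a ubiquitin-binding protein with an aspartic protease fold, had a log2 change of 0.14. The limma adjusted p of the 4 lay between 0.516 and 0.966. BAR1, the secreted protease that destroys alpha pheromone, was above background on 2 arrays of each group. YPS5, which carries a yapsin name but is not among the 5 genes, was above background on 1 OGT2468 array and on no DMSO array, so no fold is given for it. 

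Among 8 measured genes of other secretory and vacuolar proteases, 1 rose and 1 fell in limma. Over all tested probe sets the shares were 1.83% and 0.758%. PRB1, the vacuolar protease B gene, had a mean normalised intensity of 2005.5 ± 161 in OGT2468 and 1144.6 ± 60.7 in DMSO (SD, n = 3 each) and rose by 0.80 on the log2 scale (limma adjusted p = 0.00892). APE1, a vacuolar aminopeptidase gene, averaged 584.9 ± 53.4 in OGT2468 and 985.4 ± 87.7 in DMSO and fell by 0.74 on the log2 scale (limma adjusted p = 0.0222). The 2 calls went to 0 on leaving out DMSO replicate 3, stayed at 2 on leaving out OGT2468 replicate 2, and went to 1 on leaving out another array. On unscaled arrays, and under hybridization-control scaling, APE1 alone passed. KEX2, whose product cuts the same kind of basic sites in the Golgi, had a log2 change of -0.07 and KEX1, the carboxypeptidase that trims after Kex2, of -0.05. The dipeptidyl aminopeptidase genes STE13 (0.05) and DAP2 (0.18), the carboxypeptidase Y gene PRC1 (0.05) and the carboxypeptidase gene CPS1 (0.13) did not pass either. 

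Of 4 candidate yapsin substrates 0 passed in limma, and 2 were higher at an unadjusted p under 0.05, as were 8.56% of all tested probe sets. MSB2 passed at pseudocount 64, with dim probe sets left out and among named probe sets alone, and MSB2 and CIS3 passed with a variance trend in eBayes. GAS1, the gene of a GPI-anchored glucan-remodelling enzyme, had a difference of 0.06 ± 0.06 on the log2 scale (SE, 3 arrays per group). MSB2, the gene of a signalling mucin that is shed from the surface, had 0.29 ± 0.07 (limma adjusted p = 0.0998). The cell wall protein gene CIS3 had 0.21 and the alpha pheromone gene MF(ALPHA)1 had -0.08. GAS1, MSB2 and CIS3 were higher on every OGT2468 array than on any DMSO array, as were 12.0% of all tested probe sets. MF(ALPHA)1 was lower on every OGT2468 array than on any DMSO array, as were 12.1%.

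The list of cell wall integrity targets held 19 measured genes, not counting the yapsins, of which 11 rose and 0 fell in limma. Over all tested probe sets 1.83% were called higher and 0.758% lower. At an unadjusted p under 0.05 the counts were 16 and 0, beside 8.56% and 7.84% of all tested probe sets. The median log2 change of the list was 0.56, beside -0.01 over all tested probe sets. PIR3, a cell wall protein gene, and KDX1, related in sequence to SLT2, had changes of 3.48 and 2.50, and these are the 2 named genes ranked above YPS3. GSC2, a glucan synthase subunit gene, rose by 0.98, the kinase gene SLT2 by 1.10 and CRH1, a gene of a chitin-glucan crosslinking enzyme, by 0.83. The change of YPS1 lay near those of GSC2 and SLT2. When 1 array was left out, 8 or 9 of these targets rose. The number passing was 4 under hybridization-control scaling and 2 under no scaling.

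In the list of surface sensors and of the Pkc1 to Slt2 cascade itself, 2 of 16 measured genes rose and 0 fell in limma. The 2 were SLT2 and the transcription factor gene RLM1 (0.41). Over all tested probe sets 1.83% were called higher and 0.758% lower. At an unadjusted p under 0.05 the counts were 3 and 0, beside 8.56% and 7.84% of all tested probe sets. SLT2 and RLM1 are also among the 11 integrity targets that rose. In each fit without 1 array SLT2 alone of this list passed, and on unscaled arrays 0 genes passed. The other 14 did not pass. Among them the sensor genes MID2, WSC2 and WSC3 had changes of 0.22, 0.18 and 0.165. They were higher on every OGT2468 array than on any DMSO array, as were 12.0% of all tested probe sets. This was also so for RHO1 (0.08), while the groups overlapped for the sensor gene MTL1 (0.15), both named after their values were seen. The sensor gene SLG1, also called WSC1 (-0.11), and the kinase gene PKC1 (-0.11), both named after their values were seen, were lower on all OGT2468 arrays, as were 12.1% of all tested probe sets, and the list median was 0.02. Of 9 measured targets of calcineurin and the transcription factor Crz1, 3 rose and 0 fell in limma. YPS1 has also been assigned to these targets. The 3 were GSC2, the calmodulin-dependent kinase gene CMK2 (0.81) and the glucan synthesis gene KRE6 (0.34). The shares called over all tested probe sets were again 1.83% and 0.758%. At an unadjusted p under 0.05 the counts were 6 and 0, beside 8.56% and 7.84% of all tested probe sets. GSC2 is also among the integrity targets that rose. Without OGT2468 replicate 1, or without DMSO replicate 2, GSC2 and CMK2 passed, and on leaving out another array GSC2 alone passed. On unscaled arrays 0 passed, and under hybridization-control scaling GSC2 alone passed. The calcium pump gene PMC1 (0.37) and the phosphate transporter gene PHO89 (0.88) did not pass.

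**Figure D4:**
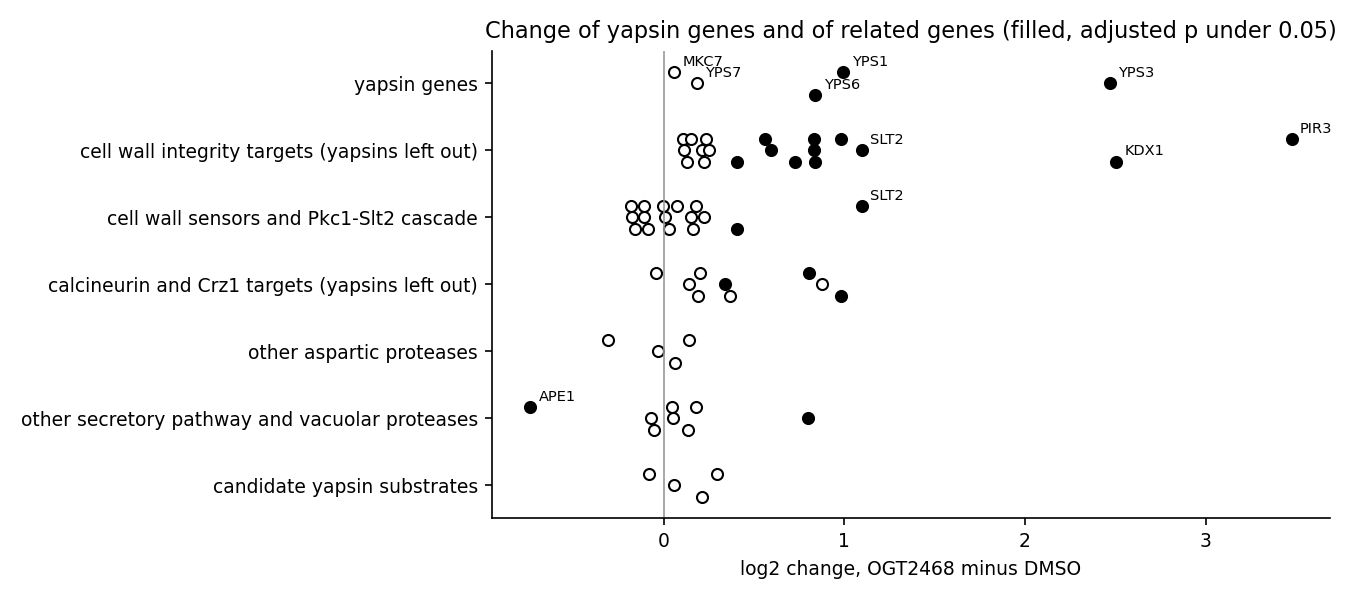
Log2 change (horizontal axis, OGT2468 minus DMSO) of the 5 yapsin genes and of 6 lists of related genes (rows), each point a gene and filled points those with a limma adjusted p under 0.05. YPS3 lies with PIR3 and KDX1 apart from the rest, and the other aspartic proteases and candidate substrates hold no filled point.

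The genes whose log2 values over the 6 arrays were most like those of each yapsin gene that rose were found by Pearson correlation among 5255 named probe sets above background. Such a coefficient mostly reflects the step between the 2 groups, since the yapsin genes were chosen here for having risen and the arrays share their normalisation. With YPS3 the 5 highest were PIR3 (r = 0.9997), GSC2, LHS1, an ER chaperone gene, YIL108W and CRG1, a methyltransferase gene, down to r = 0.9985. With YPS1 they were PMT3, a protein O-mannosyltransferase gene (r = 0.9988), FLC1, HUA2, YDL124W and GSC2 (r = 0.9972). Of these, HUA2 did not pass the test (log2 change 0.20, limma adjusted p = 0.134). Coefficients above 0.95 were as common as 228 probe sets for YPS3 and 227 for YPS1. With YPS6 the 5 highest were PAN5, RAD53, TUB1, COQ6 and EAF3, with r between 0.9891 and 0.9832. None of these 5 passed the test, with log2 changes between 0.08 and 0.27, and 42 probe sets exceeded 0.95.

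Across the series 164 probe sets were higher and 68 lower in OGT2468 (limma). Unscaled arrays gave 22 and 44, arrays scaled on the hybridization controls gave 47 and 56, and the median change of named probe sets moved to -0.27 and -0.18, against -0.02 with quantile normalisation. The median intensity of S. cerevisiae probe sets was 691 to 842 on the OGT2468 arrays and 786 to 1150 on the DMSO arrays (exact two-sided permutation p = 0.2). Relative to the shifted median, the changes of YPS3, YPS1 and YPS6 kept their direction under both scalings. On each array 95.6% to 97.1% of the S. cerevisiae probe sets exceeded the background level, which by its definition leaves about 2% of the other species' probe sets above it.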

How the data were processed

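RNA of 3 OGT2468 and 3 DMSO cultures, grouped and numbered by the sample titles, was hybridised to 1 array each. The authors deposited linear intensities, 1 value for each probe set on each array. The submitters' processing notes name GCRMA, but the deposited intensities are not on its log2 scale and were not on a common distribution, and the steps are not given in the sources used here. Of 10928 probe sets, 8968 were tested, leaving out 1747 annotated to another species and 213 controls. Of those tested, 5498 were named by an S. cerevisiae gene and 3470 had no gene name. The species of these 3470 was not determined, so probe sets for another species may be among them. Names came from the platform annotation and the R64 gene table, and no coordinates are given because the files name no build. The probe sets of the members carry the plain suffix of sets designed for a single transcript.

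The intensities were quantile normalised, a pseudocount of 16 was added, log2 was taken and limma 3.58.1 (R 4.3.3) was fitted without covariates. This scale understates changes of dim genes, here YPS6. Where lists had several probe sets for a gene, the brightest was used. Simulated data of 8968 probe sets gave 96% recovery of 2-fold and 66% of 1.41-fold changes, with 4.71% of calls unchanged ones. The 200 changed probe sets were drawn from brighter ones only, so recovery for genes as dim as YPS6 was not simulated. Only 3 arrays per group limit the precision. The members, the lists and the rule for named genes (all members, both neighbours, all genes of the 3 protease and substrate lists, up to 5 genes by lowest adjusted p of the other lists, and the 5 most alike genes) were chosen with earlier results of these data known. The 6 lists held 56 different measured genes, and 4 listed genes were not matched to a tested probe set. SLT2, RLM1, GSC2 and CIS3 were each counted in more than 1 list. A promoter motif search foreseen in the design was not run. 10 alternatives and the fits without 1 array were tried.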

Additional observations from a re-analysis of the deposited data

How the results depend on the processing

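YPS3 passed under all 10 alternatives (changes of 2.20 to 2.52) and in all 6 fits without 1 array, and YPS1 passed in all but the fit with no scaling. With no scaling 1 yapsin gene passed: YPS1 was 0.71, YPS6 0.62, YPS7 -0.10 and MKC7 -0.23, and 66 probe sets (22 higher, 44 lower) and 3 genes of the lists, against 15, passed. With scaling on the hybridization controls YPS6 was 0.71, YPS7 -0.002 and MKC7 -0.13, and 103 probe sets (47 higher) and 5 list genes passed. With a pseudocount of 1 YPS6 was 0.98 and did not pass. With a variance trend in eBayes YPS7 (0.185) passed at adjusted p = 0.0495, giving 4 yapsin genes, 23 list genes and 556 probe sets (335 higher, 221 lower). The probe sets called were 142 (101 higher, 41 lower) with medians subtracted, 479 (292, 187) with a pseudocount of 64, 461 (287, 174) without dim probe sets and 526 (314, 212) among named ones, the last 2 with fewer probe sets tested. Why the counts moved was not tested for any of the alternatives. With the replicate number as a block YPS6 (0.84) did not pass, YPS1 and YPS3 did, and 41 probe sets (27 higher, 14 lower) and 4 list genes passed, with PRB1, APE1, SLT2 and RLM1 not among them. Arrays of the same number deviated together with correlations of only 0.06, 0.04 and 0.01, so the samples are taken to share only a number, although 5 of 6 arrays correlated best with their own number. Without 1 array 89 to 131 probe sets (61 to 91 higher, 28 to 40 lower), 8 to 11 list genes and 2 to 3 yapsin genes passed, with YPS6 at 0.75 to 0.97 and MKC7 at -0.011 (without OGT2468 replicate 3) to 0.165. The splits into higher and lower were chosen after seeing the data. Signal over background limits YPS6, BAR1 and YPS5.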
